A study of Rattus norvegicus with 172 samples.

Results

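The spinal cord just caudal to a transection was compared 1 day after surgery between rats given a chitosan tube that carried neurotrophin-3 (NT-3) and rats given an empty chitosan tube. The comparison used the 3 arrays of each group titled for that segment and day, which are 6 of the 172 arrays of the series. NT-3 tube animals had a tube seeded with carriers of chitosan and NT-3 placed in the gap, and tube alone animals had the same kind of tube with nothing in it. Lesion control animals had the same operation and no implant, and normal cord came from T7-8 segments of uninjured rats. All were female Wistar rats aged 2 months, and the 3 operated groups had lost 5 mm of cord at T7-8. Each array of an operated group measured RNA pooled from the 5 mm segments of 4 animals, with dura and meninges included, and the replicates were separate pools. The tube alone group lacked the carrier as well as NT-3, so the factor and its carrier cannot be told apart here. In pooled tissue RNA of this kind, fewer cells of a type and less RNA per cell cannot be told apart either.

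NT-3 is a secreted neurotrophin that signals mainly through the receptor tyrosine kinase TrkC, encoded by Ntrk3, and also binds the shared receptor p75, encoded by Ngfr. It supports proprioceptive sensory neurons in development and promotes the proliferation and survival of cells of the oligodendrocyte lineage in culture. In the first day after cord injury, damaged tissue releases cytokines of the interleukin-6 family, myelin begins to break down, and interferon-induced antiviral genes can be switched on in glia and invading cells.

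Of the 31099 probe sets on the Affymetrix Rat Genome 230 2.0 array, 20832 carried a single gene symbol and gave 14218 genes, of which 11479 passed the filter on dim genes and were tested. Values are log2 intensities, so a difference of 1 is a factor of 2, and every difference given is NT-3 tube minus tube alone. A gene is said to have risen or fallen where the adjusted p of limma, a linear model fitted across all genes, was below 0.05. The value after ± beside a difference is the SE of that fit, whose spread is shared over 22 groups of arrays. Markers of cord tissue were bright on all of them: the myelin gene Mbp reached 14.57 or more, the astrocyte gene Gfap 13.95 or more and the neuronal gene Snap25 13.49 or more. Hoxa9, a posterior positional gene, lay between 9.11 and 9.66 on the 6 caudal arrays and between 8.36 and 8.85 on the 6 rostral arrays of the same day and groups.

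The arrays of the tube alone group stood apart from each other. Over the tested genes, tube alone replicate 3 correlated with the NT-3 tube arrays at 0.9503, 0.9586 and 0.946, and with tube alone replicates 1 and 2 at 0.9807 and 0.9612 (Pearson's r across genes, which are not independent). Tube alone replicate 2 correlated with the 3 NT-3 tube arrays at 0.9893, 0.9867 and 0.9885, higher than with either array of its own group. The groups are those of the labels, and whether these arrays carry the right label was not tested. The NT-3 tube arrays correlated with each other at 0.989, 0.9928 and 0.9858. The median over genes of the SD within the group was 0.11 in the NT-3 tube group and 0.166 in the tube alone group, close to the top of the range of 0.083 to 0.172 over the 22 groups of the fit. Replicate 3 of the tube alone group also held transcripts of skeletal muscle. Acta1, muscle actin, was at 7.22, 7.22 and 7.03 on the NT-3 tube arrays, against 6.77, 6.97 and 10.89 on the tube alone arrays, and Ckm, muscle creatine kinase, was at 4.62, 4.46 and 4.47, against 4.60, 4.50 and 8.63. The summed linear level of the 21 muscle genes on the array ran from 6784 to 7736 in the NT-3 tube group. In the tube alone group it ran from 6746 to 15074, and 14 of the 21 genes passed the filter. NT-3 tube replicate 3 stood out in another way, with transcripts of sensory ganglion neurons: Avil was at 7.39, 7.09 and 10.06 on the NT-3 tube arrays, against 6.93, 7.04 and 7.22 on the tube alone arrays. The 13 ganglion genes on the array summed to between 5237 and 12097 in the NT-3 tube group and to between 4177 and 4606 in the tube alone group. Of these 13, 8 were tested, and Isl1, Pou4f1, Prdm12, Trpv1 and Scn11a did not pass the filter. The part of these foreign transcripts in the results was not tested.

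With all arrays, 2254 of the 11479 genes passed the test, which is 19.6%, with 1355 higher (11.8%) and 899 lower (7.83%) in NT-3 tube cord. A second quantile normalization left the total near that at 2373 but gave 1184 higher and 1189 lower, so which direction held more genes depended on the scaling. Most differences were small, since 14 genes rose (0.122%) and 10 fell (0.0871%) by at least 2-fold. The 3 NT-3 tube values lay wholly above or wholly below the 3 tube alone values in 3142 genes (27.4%). The count rested on tube alone replicate 3: without that array 39 genes passed (0.34%), 14 higher (0.122%) and 25 lower (0.218%), and all 39 were among the 2254. Leaving out tube alone replicate 2 gave 3651 genes and leaving out tube alone replicate 1 gave 1370, while the count was 652 without NT-3 tube replicate 1, 2103 without replicate 2 and 773 without replicate 3. When the 6 arrays were fitted alone, with no spread borrowed from the other groups, limma called 0 genes, and 2528 had an unadjusted p below 0.05. Of the 39 genes called with and without tube alone replicate 3, 38 were also called whichever other array was left out, in fits that shared the spread of the other groups. Those other fits kept tube alone replicate 3, on which the count rested, so they are not a separate check of the 39. With the replicates numbered 3 of both groups left out, limma called 0 genes. These 39 genes are described first. Of the other caudal results, a call is said to hold without tube alone replicate 3 only where that is stated.

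**Figure D1:**
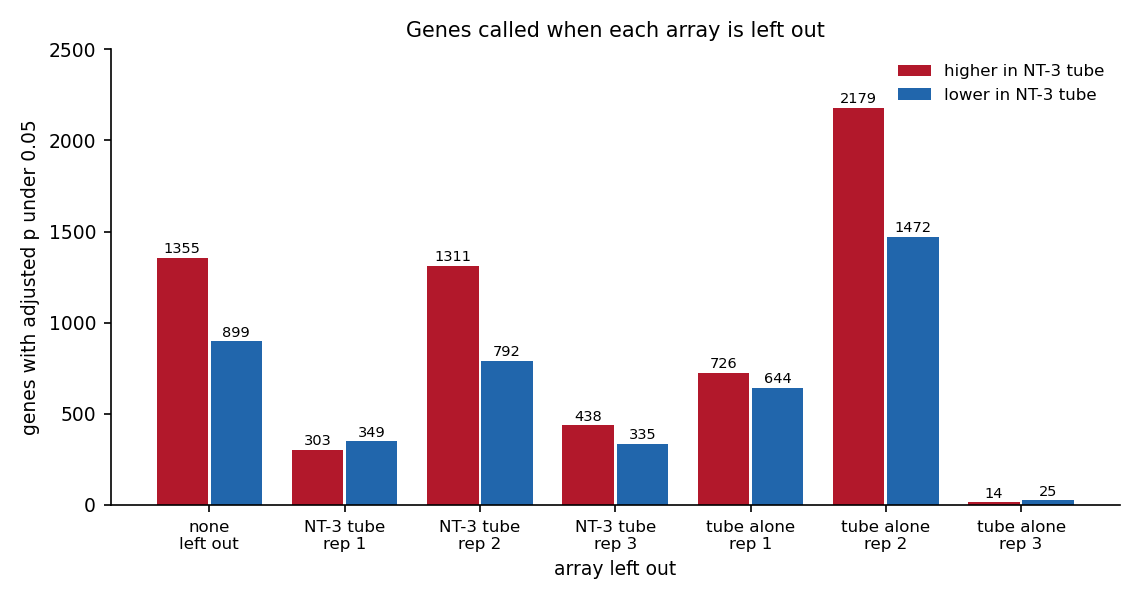
Number of genes called by limma at an adjusted p below 0.05 (vertical axis, genes), by the array left out (horizontal axis). The first bars have no array left out, and the others leave out each of the 6 arrays in turn. Bars are split into genes higher and genes lower in NT-3 tube cord. Without tube alone replicate 3, 14 genes were higher and 25 lower, and without tube alone replicate 2, 2179 were higher and 1472 lower.

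**Figure D2:**
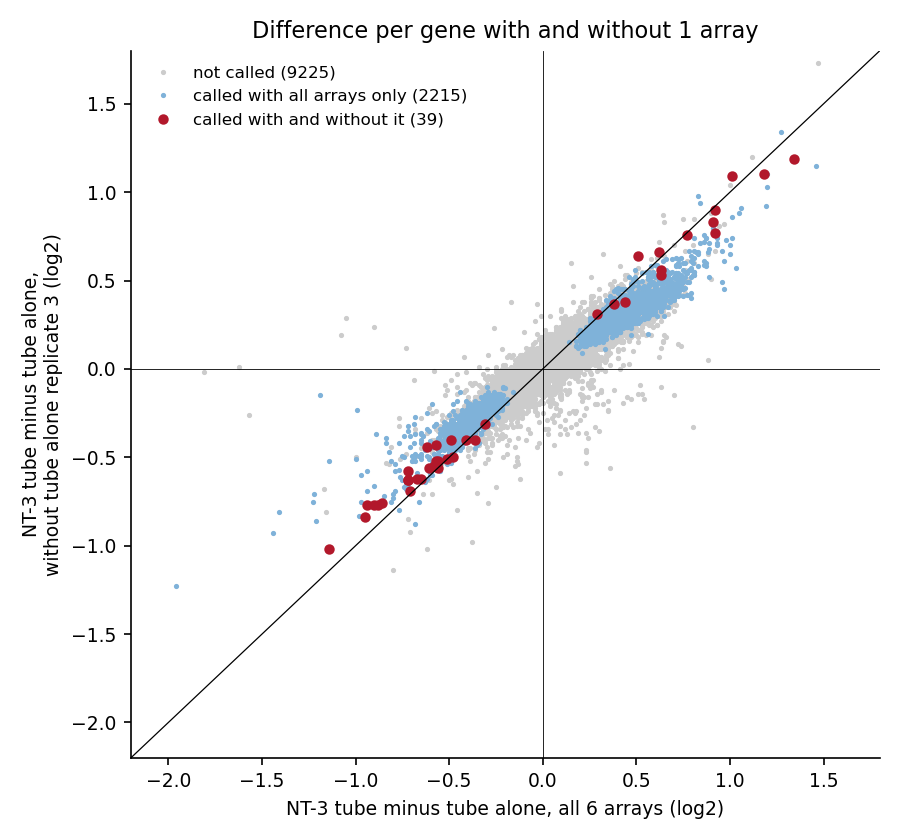
Log2 difference of NT-3 tube minus tube alone for each tested gene, with all 6 arrays on the horizontal axis and without tube alone replicate 3 on the vertical axis. Colours mark the 39 genes called both ways, the 2215 genes called with all arrays but not without that one, and the genes not called.

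Among the 25 genes that were lower in NT-3 tube cord both ways were 3 enzymes of membrane lipid synthesis. Scd, the stearoyl-CoA desaturase that makes monounsaturated fatty acids, had 9.41, 9.48 and 9.45 in NT-3 tube cord, against 10.05, 10.36 and 10.51 in tube alone cord. The groups did not overlap, and Scd fell by 0.86 ± 0.13 (SE), a 1.82-fold difference, with an adjusted p of 0.000106 in limma and of 0.0106 without tube alone replicate 3. Ugt8, which makes galactosylceramide, the main glycolipid of myelin, had 10.55, 11.23 and 10.37 in NT-3 tube cord, against 12.03, 11.45 and 12.08 in tube alone cord. This was the largest of the 25 falls, 1.14 ± 0.22 or 2.20-fold, with limma adjusted p-values of 0.00172 and, without that array, 0.0472. Gal3st1, which sulfates the same lipid to sulfatide, had 8.27, 8.49 and 8.14 in NT-3 tube cord, against 8.87, 8.84 and 8.93 in tube alone cord. Its tube alone arrays were tightly grouped and all above the NT-3 tube arrays, and it fell by 0.58 ± 0.10 (adjusted p 0.00056 and 0.0184 in limma with and without the array). Lesion control cord averaged 9.97 ± 0.10 for Scd, 11.17 ± 0.21 for Ugt8 and 8.31 ± 0.23 for Gal3st1 (SD, n = 3), and normal cord averaged 10.62 ± 0.28, 12.05 ± 0.57 and 9.57 ± 0.08 for the same genes.

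Masp1, a serine protease that starts the lectin pathway of complement, had 8.57, 8.66 and 8.45 in NT-3 tube cord, against 9.50, 9.17 and 9.66 in tube alone cord. It fell by 0.88 ± 0.14, or 1.84-fold (limma adjusted p 0.000171, and 0.0153 without tube alone replicate 3). Lesion control cord was at 8.58 ± 0.27 and normal cord at 8.23 ± 0.16 (SD, n = 3), so the NT-3 tube level lay by those groups and the tube alone level above them. The difference of Masp1 was shown by its brightest probe set; the other 2 probe sets of the gene differed by -0.16 and 0.

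Other genes that fell both ways encode signalling adaptors, receptors and glial membrane proteins. Gab1, an adaptor that links receptor tyrosine kinases to PI3-kinase and MAP kinase, had 9.57, 9.82 and 9.59 in NT-3 tube cord, against 10.34, 10.25 and 10.54 in tube alone cord, a difference of -0.72 ± 0.10 with a limma adjusted p of 2.58e-05. Fgfr2, a fibroblast growth factor receptor of glia, had 9.89, 10.05 and 9.81 in NT-3 tube cord, against 10.49, 10.38 and 10.59 in tube alone cord. The collagen receptor Ddr1 had 9.99, 9.86 and 9.65 in NT-3 tube cord, against 10.16, 10.51 and 10.27 in tube alone cord. For these 3 genes the groups were apart. Tspan2, a tetraspanin of oligodendrocytes, is the 1 gene of the 25 whose groups overlapped, with 10.53, 11.01 and 10.24 in NT-3 tube cord, against 11.61, 10.95 and 11.35 in tube alone cord. Col11a1, a chain of fibrillar collagen, had 7.37, 7.37 and 7.45 in NT-3 tube cord, against 8.15, 8.32 and 8.58 in tube alone cord. Its difference of -0.95 ± 0.18 had limma adjusted p-values of 0.00129 and, without the array, 0.0405. Rfx4, a transcription factor of neural progenitors and astrocytes, had 8.85, 9.07 and 8.63 in NT-3 tube cord, against 9.66, 9.59 and 10.12 in tube alone cord. The remaining genes lower both ways were Chn2, Rhou, Lrrc8d, Marchf8, Ttyh2, Ccnyl1, Serinc5, Tmcc3, Ctnnd2, Sgk2, Rasgef1c, Mtss1, Prickle2, Secisbp2l and Tril, and the sizes of the 25 falls ran from 0.31 to 1.14. In 22 of the 25 genes the lesion control mean lay between the means of the NT-3 tube and tube alone groups, and in 22 the tube alone mean lay nearer to normal cord than the NT-3 tube mean did. The genes were chosen for the difference between the implanted groups, so no pattern is read from these counts. The shares over all tested genes were not counted.

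Among the 14 genes that rose both ways were 3 cytokines. Cntf, ciliary neurotrophic factor, a cytokine of the interleukin-6 family that supports motor neurons and is made by astrocytes and Schwann cells, had 11.67, 11.34 and 11.61 in NT-3 tube cord, against 10.50, 10.92 and 10.48 in tube alone cord. The groups did not overlap, and Cntf rose by 0.91 ± 0.14, or 1.87-fold (limma adjusted p 0.000122, and 0.0106 without tube alone replicate 3). Lesion control cord averaged 10.99 ± 0.20 and normal cord 10.38 ± 0.29 (SD, n = 3), so the tube alone mean was near normal cord. Il11, another cytokine of that family, had 7.03, 6.31 and 6.85 in NT-3 tube cord, against 6.15, 6.02 and 6.50 in tube alone cord, and these groups overlapped although the gene was called. Il11 was not called without NT-3 tube replicate 1 (difference 0.36, limma adjusted p 0.124) or replicate 3 (0.45, 0.0677). Il34, a ligand of the CSF1 receptor on microglia, had 9.02, 8.82 and 9.18 in NT-3 tube cord, against 8.28, 8.61 and 8.25 in tube alone cord.

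The largest rise among genes whose groups did not overlap was that of Egfl8, a secreted protein with EGF-like domains, at 9.15, 8.65 and 9.51 in NT-3 tube cord, against 7.43, 8.39 and 7.47 in tube alone cord. Its difference was 1.34 ± 0.23, or 2.53-fold, with a limma adjusted p of 0.00028 and, without tube alone replicate 3, of 0.0194. Tagln, an actin-binding protein of smooth muscle and activated fibroblasts, had 10.10, 9.81 and 10.26 in NT-3 tube cord, against 8.60, 9.32 and 8.72 in tube alone cord, and rose 2.26-fold. In both genes tube alone replicate 2 was the array of its group nearest to the NT-3 tube values. Kcne3, an accessory subunit of potassium channels, had 8.78, 8.58 and 8.83 in NT-3 tube cord, against 7.94, 7.99 and 7.51 in tube alone cord, and rose by 0.92 ± 0.14 (limma adjusted p 0.000106, and 0.0111 without the array). Tmem176b, a membrane protein of myeloid cells, had 11.78, 11.89 and 12.13 in NT-3 tube cord, against 11.35, 11.45 and 11.11 in tube alone cord. Sfrp5, a secreted Wnt antagonist, had 7.99, 8.11 and 8.30 in NT-3 tube cord, against 6.74, 7.35 and 7.27 in tube alone cord. Drp2, a dystrophin-related protein of the Schwann cell membrane, had 9.51, 9.37 and 9.61 in NT-3 tube cord, against 8.70, 8.77 and 8.72 in tube alone cord, and rose by 0.77 ± 0.16. The other 4 probe sets of Drp2 were dim, with means of 3.25 to 6.88, and differed by -0.12 to 0.19. Fxyd6, Mrap, Gss, Sgsm3 and Dohh completed the 14 genes, whose rises ran from 0.29 to 1.34. In 12 of the 14 the lesion control mean lay between the 2 implanted groups, and in 11 the tube alone mean was nearer to normal cord than the NT-3 tube mean. These genes too were chosen for the difference between the 2 implanted groups, and no pattern is read from these counts. Next to Egfl8 in size of rise with groups apart was Sostdc1, which was not called without tube alone replicate 3 (limma adjusted p 0.0739). Sostdc1 had 9.46, 8.79 and 9.43 in NT-3 tube cord, against 7.43, 8.35 and 8.09 in tube alone cord. With all arrays it rose by 1.27 ± 0.31 (limma adjusted p 0.00638), and rostrally by 1.04 (0.0409).

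**Figure D3:**
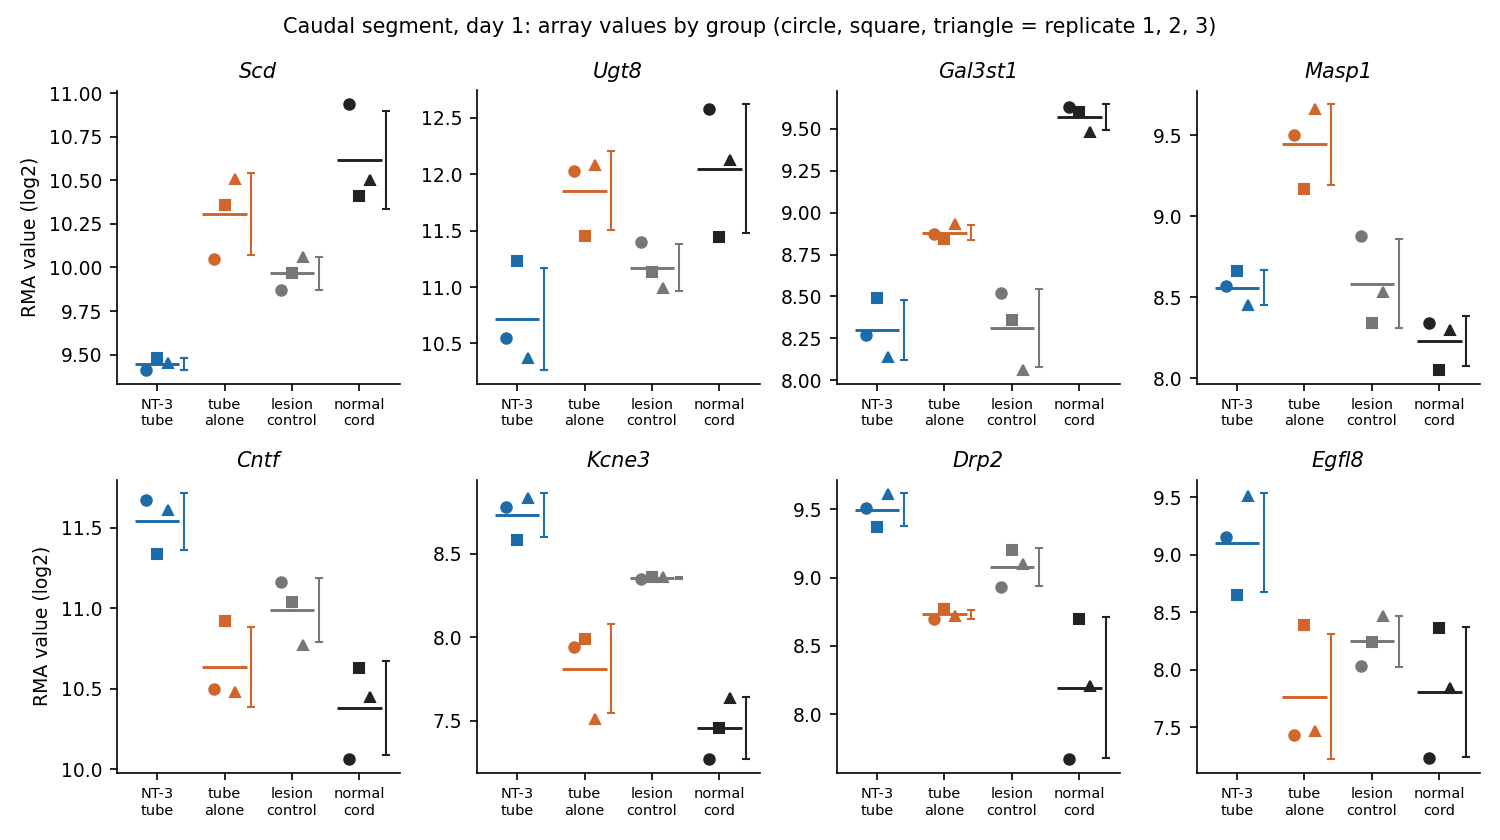
Log2 intensity of 8 genes called with and without tube alone replicate 3 (vertical axes), by array, in NT-3 tube, tube alone, lesion control and normal cord. Each point is an array, with circles, squares and triangles for replicates 1, 2 and 3, lines are group means and bars are SDs (n = 3). Scd, Ugt8, Gal3st1 and Masp1 were lower in NT-3 tube than in tube alone cord, and Cntf, Kcne3, Drp2 and Egfl8 were higher.

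The genes of central myelin extended the fall of Ugt8 and Gal3st1, though fewer of them passed without tube alone replicate 3. Of the 16 tested members of the list for oligodendrocytes and central myelin, 11 fell and 0 rose, with a median difference of -0.41, against 7.83% of all tested genes called lower and a median of 0.02. Cnp, an enzyme of uncompacted myelin, had 12.94, 13.06 and 12.76 in NT-3 tube cord, against 13.36, 13.25 and 13.46 in tube alone cord, and its difference was -0.44 ± 0.09 with a limma adjusted p of 0.00291, or 0.0763 without the array. Mobp, a small basic protein of compact myelin, had 13.58, 13.66 and 13.32 in NT-3 tube cord, against 14.04, 13.74 and 13.99 in tube alone cord. Mbp, the myelin basic protein, differed least among those that fell, with 14.61, 14.72 and 14.57 in NT-3 tube cord, against 14.84, 14.69 and 14.85 in tube alone cord. Mal, a raft protein of myelin, had 11.10, 11.62 and 10.67 in NT-3 tube cord, against 12.01, 11.26 and 12.18 in tube alone cord. In Mbp and Mal tube alone replicate 2 lay within the NT-3 tube values. Fa2h, which makes the hydroxylated fatty acids of myelin lipids, Mog, Cldn11, Opalin and Ermn also fell, and Mag, an adhesion protein of inner myelin, differed by -0.12 with an adjusted p of 0.589. The list's median per array, centred on the 6 arrays, was -0.18, 0.05 and -0.41 in NT-3 tube cord, against 0.20, 0.03 and 0.26 in tube alone cord. NT-3 tube replicate 3 was the lowest and tube alone replicate 3 the highest, and the replicates 2 of both groups lay side by side. Without tube alone replicate 3 the median was -0.38 and 2 members, Ugt8 and Gal3st1, were called, and without NT-3 tube replicate 3 the number was 3 and without NT-3 tube replicate 1 it was 6.

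Genes of cholesterol and fatty acid synthesis gave 7 falls and 0 rises among 22 tested members, against 7.83% of all tested genes called lower, with a median of -0.12. Besides Scd these were the cholesterol enzymes Lss, Cyp51 and Sqle and the fatty acid enzymes Elovl6, Fads1 and Fasn. Cyp51, lanosterol demethylase, had 11.99, 12.28 and 12.22 in NT-3 tube cord, against 12.71, 12.81 and 12.78 in tube alone cord. Lss, lanosterol synthase, had 9.74, 9.69 and 9.83 in NT-3 tube cord, against 10.24, 10.23 and 10.75 in tube alone cord. Fasn, fatty acid synthase, had 10.87, 10.91 and 10.92 in NT-3 tube cord, against 11.15, 11.34 and 11.35 in tube alone cord. In these 3 genes the NT-3 tube arrays were all lower, as they were in 10 of the 22 members, against 12.7% of all tested genes. The summed linear level of the list ran from 41635 to 44651 in NT-3 tube cord and from 48302 to 54242 in tube alone cord. Without tube alone replicate 3, Scd alone was called and the median was still -0.12.

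Some genes of astrocytes and of oligodendrocyte precursors were lower. Of 14 genes of astrocyte homeostasis, 5 fell and 0 rose (median -0.27), where 7.83% of all tested genes were called lower. Aqp4, the water channel of astrocyte endfeet, had 12.10, 12.52 and 11.87 in NT-3 tube cord, against 12.80, 12.55 and 13.09 in tube alone cord, a difference of -0.65 ± 0.14. Gja1, the gap junction protein connexin 43, the glutamate transporter Slc1a3, the folate enzyme Aldh1l1 and glutamine synthetase Glul were the others. Of 10 genes of oligodendrocyte precursors, Ptprz1, Lhfpl3 and Olig1 fell, with a list median of -0.18. Ptprz1, a receptor phosphatase with a chondroitin sulfate form, had 10.26, 10.39 and 9.85 in NT-3 tube cord, against 10.73, 10.59 and 11.12 in tube alone cord. It was also 1 of the 4 members that fell in the list of 22 growth-inhibitory matrix and guidance genes, with the proteoglycan Bcan, the semaphorin Sema4d and Rtn4, which encodes Nogo. None of these 3 lists had a member called without tube alone replicate 3, and their medians without it were -0.20, -0.18 and -0.20. Reactive astrocyte genes, by contrast, had a median of 0.02 over 19 members, with Nes and Timp1 higher with all arrays and 0 members called without tube alone replicate 3.

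Cell cycle genes were lower in 7 of 27 tested members, against 7.83% of all tested genes, and higher in 0, with a median of -0.20. Top2a, the topoisomerase of dividing cells, had 6.51, 6.56 and 6.44 in NT-3 tube cord, against 7.08, 7.36 and 7.61 in tube alone cord, and fell by 0.85 ± 0.20 (limma adjusted p 0.00589, and 0.132 without tube alone replicate 3). The NT-3 tube mean of Top2a, 6.5, was near the filter level of 6.55, and the other probe set of the gene differed by -0.38. Lesion control arrays averaged 6.71 ± 0.79 (SD, n = 3) for Top2a, a spread that covers both implanted groups. Bub1, Mki67, Ccna2, Ccnb2, Kif20a and Kif11 fell as well, and 0 members were called without that array.

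Several cytokines and early injury genes were higher in NT-3 tube cord. Of 20 tested cytokines and chemokines, 5 rose and 0 fell (median 0.33), against 11.8% of all tested genes called higher. Il6, a cytokine released early after cord injury, had 9.91, 9.73 and 9.64 in NT-3 tube cord, against 8.79, 8.97 and 8.38 in tube alone cord. It rose by 1.05 ± 0.21, or 2.07-fold (limma adjusted p 0.00223, and 0.0747 without tube alone replicate 3), beside 9.21 ± 0.57 in lesion control and 3.95 ± 0.14 in normal cord (SD, n = 3). All 9 operated arrays were thus far above normal cord. Ccl3, a chemokine of myeloid cells, had 9.89, 8.84 and 9.25 in NT-3 tube cord, against 8.22, 9.37 and 7.97 in tube alone cord. Cxcl2, a neutrophil chemokine, had 9.89, 9.34 and 10.02 in NT-3 tube cord, against 8.85, 9.80 and 8.24 in tube alone cord. For both chemokines tube alone replicate 2 was within the NT-3 tube values. Cxcl3 and Il11 were the other members that rose. Of this list, which does not hold Cntf or Il34, Il11 was the 1 member called without tube alone replicate 3, and the median was then 0.25.

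Early response genes induced by neurotrophins and other stimuli gave 4 rises of 22 (Fosl1, Ier3, Nr4a2 and Junb, median 0.13), and axon regeneration genes gave 4 of 26 (Il6, Gal, Anxa2 and S100a10, median 0.29), shares not far from the 11.8% of all tested genes called higher. Hmox1, the haem-degrading enzyme induced in macrophages after bleeding, had 12.93, 12.86 and 13.30 in NT-3 tube cord, against 12.01, 12.24 and 11.66 in tube alone cord. It rose by 1.06 ± 0.31 (limma adjusted p 0.0165, with 0.213 without tube alone replicate 3 and 0.0808 without NT-3 tube replicate 3), and lesion control was at 12.06 ± 0.48 and normal cord at 7.96. Of the 18 genes of the unfolded protein and amino acid response, Nupr1, Chac1, Ddit3, Sdf2l1, Atf5 and Atf4 rose and Psat1 fell. None of these genes was called without tube alone replicate 3. Markers of leukocytes had few calls: of 23 genes of microglia and macrophages 1 rose and 1 fell with a median of 0 (0 called without tube alone replicate 3), and 0 of 12 neutrophil genes were called with a median of -0.13. The phagocyte gene Cybb and the myeloid gene Igsf6 were nevertheless among the largest falls with all arrays, each with a difference of -0.94. The other probe set of Cybb differed by -1.07. Neither gene was called without tube alone replicate 3.

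Subunits of the mitochondrial respiratory chain were higher, with 10 of 23 called and 0 lower (median 0.36), against 11.8% of all tested genes called higher. Ndufa5, a complex I subunit, had 10.68, 10.47 and 10.46 in NT-3 tube cord, against 9.80, 10.16 and 9.31 in tube alone cord. Sdhb, the iron-sulfur subunit of complex II, had 12.40, 12.47 and 12.34 in NT-3 tube cord, against 11.99, 12.18 and 11.67 in tube alone cord. Uqcrfs1, of complex III, had 11.92, 11.86 and 11.78 in NT-3 tube cord, against 11.57, 11.63 and 11.36 in tube alone cord. In 15 of the 23 genes the NT-3 tube arrays were all higher, against 14.7% of all tested genes, yet tube alone replicate 3 was the extreme. The list's centred median per array was 0.23, 0.17 and 0.10 in NT-3 tube cord, against -0.15, 0.01 and -0.50 in tube alone cord. Without that array 0 members were called and the median was 0.21.

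**Figure D4:**
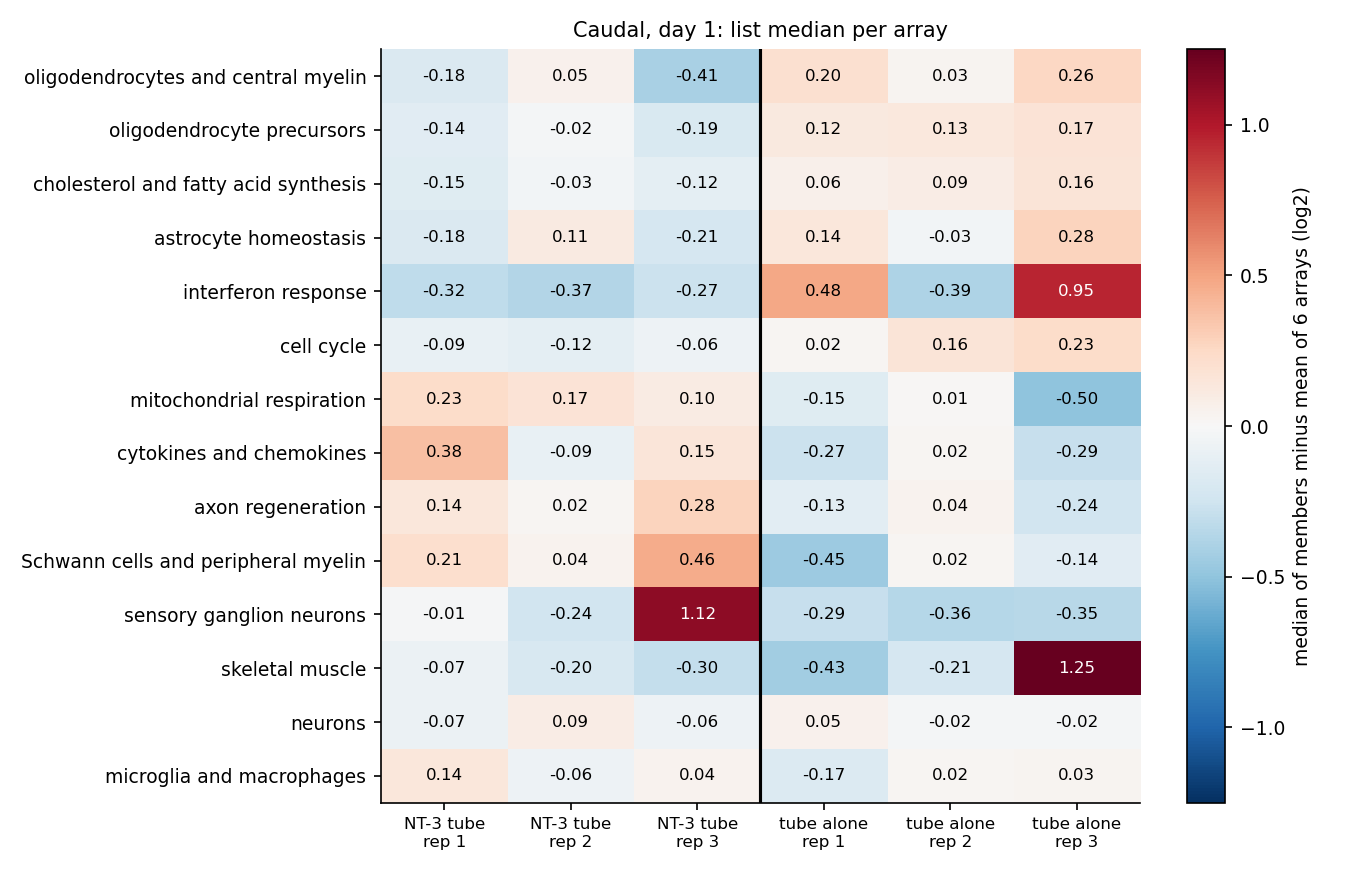
Median log2 intensity of 14 gene lists on each of the 6 arrays (NT-3 tube replicates 1 to 3, then tube alone replicates 1 to 3), after each gene was centred on its mean over the 6 arrays. Colour gives the centred median, printed in each cell. Tube alone replicate 2 has values near 0 for central myelin (0.03) and mitochondrial respiration (0.01), and tube alone replicate 3 has 1.25 for skeletal muscle.

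The neurotrophins and their receptors moved in both directions. Ntf3, which encodes NT-3 itself, was below the filter on dim genes, with 4.71, 4.95 and 4.68 in NT-3 tube cord, against 4.63, 4.44 and 4.73 in tube alone cord, and at 4.69 to 4.96 in normal cord. The implanted protein is not measured by these arrays. Ntrk3, encoding TrkC, had 6.98, 7.39 and 7.32 in NT-3 tube cord, against 7.19, 7.07 and 5.99 in tube alone cord (difference 0.48, limma adjusted p 0.142). Ngfr had 6.84, 5.93 and 7.58 in NT-3 tube cord, against 5.77, 6.57 and 5.71 in tube alone cord, with a difference of 0.77 and an adjusted p of 0.0704. In both receptors the groups overlapped. Bdnf, a related neurotrophin that signals through TrkB, had 7.91, 8.07 and 8.25 in NT-3 tube cord, against 7.26, 7.65 and 7.13 in tube alone cord. Bdnf rose by 0.73 ± 0.18 (limma adjusted p 0.007, and 0.14 without tube alone replicate 3). The other probe set of Bdnf was dim, with means of 5.27 in NT-3 tube cord and 5.13 in tube alone cord, and differed by 0.14. Ntrk2, encoding TrkB, had 10.68, 10.75 and 10.40 in NT-3 tube cord, against 10.84, 10.91 and 11.24 in tube alone cord, and fell by 0.39. Sort1, a co-receptor with p75 for neurotrophin precursors, and Kidins220, a scaffold of Trk receptors, fell by 0.34 and 0.24. Of the 9 tested members of this list, 2 rose (Cntf and Bdnf) and 3 fell, against 11.8% of all tested genes called higher and 7.83% lower. Cntf alone was called without tube alone replicate 3. The receptor genes Gfra1 and Ret of the GDNF family were not called, and Ntf4, Gdnf and Lif were below the filter.

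With all arrays, Bdnf differed in the opposite direction on the other side of the gap, though the call on each side was lost without 1 tube alone array. In the rostral segment on day 1 it had 7.65, 6.97 and 6.91 in NT-3 tube cord, against 7.91, 7.68 and 7.78 in tube alone cord, and fell by 0.61 (limma adjusted p 0.0409, and 0.13 without rostral tube alone replicate 1, which held muscle transcripts). The difference between the contrasts, caudal minus rostral, was 1.34 with a limma adjusted p of 0.0016, and 1.23 with 0.0243 without caudal tube alone replicate 3. It was not examined for Bdnf without rostral tube alone replicate 1. That test called 1313 of 11590 genes (11.3%) with all arrays and 8 of 11592 (0.069%) without that array, and Bdnf was 1 of the 8. Tmem176b was another of them, with a difference of 0.81 (adjusted p 7.4e-05 in limma) and, without the array, 0.71 (0.00527).

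The same contrast in the rostral segment called 213 of 11553 genes (1.84%), of which 118 were higher (1.02%) and 95 lower (0.822%). With the same sign, 35 genes were called in both segments, or 6 without caudal tube alone replicate 3. Caudally, 19.6% of all tested genes were called with all arrays and 0.34% without that array. Genes called with opposite signs were not counted, and no agreement is read from these counts. The rostral count was 23 without NT-3 tube replicate 3 and 420 without NT-3 tube replicate 1. Rostral tube alone replicate 1 also held muscle transcripts, with Acta1 at 6.76, 7.49 and 6.74 on the rostral NT-3 tube arrays, against 10.96, 7.06 and 7.29 on the rostral tube alone arrays, and 73 genes were called without it. The labels do not say whether the rostral and caudal pools came from the same animals. Masp1 in rostral cord had 8.62, 8.49 and 8.29 with the NT-3 tube, against 9.48, 9.70 and 9.22 with the tube alone, a difference of -1 (limma adjusted p 0.00426). Gal3st1 in rostral cord had 8.04, 8.13 and 8.12 with the NT-3 tube, against 8.62, 8.87 and 8.76 with the tube alone, a difference of -0.65 (9.93e-05). In both genes the rostral groups were apart by about as much as the caudal ones, and both were called without rostral tube alone replicate 1 (adjusted p 0.0201 and 0.000113). Fa2h in rostral cord had 9.6, 9.36 and 9.63 with the NT-3 tube, against 10.08, 10.30 and 10.17 with the tube alone, a difference of -0.65 with an adjusted p of 0.012. Drp2 was higher there by 0.96 (0.00163) and Egfl8 by 0.73 (0.0409). Without rostral tube alone replicate 1, Fa2h and Drp2 were called (0.0213 and 0.0424), and Egfl8 and Il11 were not (0.142 and 0.187). Of the 25 genes lower both ways caudally, 22 also had a negative rostral difference and 3 were called (Chn2, Masp1 and Gal3st1), with a median of -0.20. Of the 14 higher, 9 had a positive rostral difference and 3 were called (Egfl8, Drp2 and Il11), with a median of 0.24. The share of all tested genes with the same sign in both segments was not counted. Scd, Ugt8 and Cntf differed rostrally by -0.35, -0.65 and 0.35 with adjusted p-values of 0.23, 0.121 and 0.193, and Kcne3 by -0.04.

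On day 3 the caudal contrast called 163 genes (1.42%), and 46 genes were called on both days with the same sign, or 2 without tube alone replicate 3 of day 1. The day 1 contrast called 19.6% of all tested genes with all arrays and 0.34% without that array. Genes called with opposite signs were not counted, and no agreement between days is read from these counts. Tube alone replicate 3 of day 3 held muscle transcripts as well, with Acta1 at 6.52, 6.69 and 6.48 on the NT-3 tube arrays, against 6.07, 6.09 and 10.69 on the tube alone arrays, and 33 genes were called without it. Cntf on day 3 was higher, by 0.53 (limma adjusted p 0.0395), and Drp2 by 0.71 (0.00946), and without that array the adjusted p was 0.262 for Cntf and 0.0456 for Drp2. None of the 25 lower genes was called on day 3, where their median was -0.14. Masp1 averaged 9.10 in NT-3 tube cord and 8.72 in tube alone cord on day 3, so its difference was 0.38 with an adjusted p of 0.151. The difference between days, day 1 minus day 3, called 29 genes (0.253%), with Masp1 at -1.27 (0.0011), Scd at -1.05 (0.0053) and Kcne3 at 0.94 (0.019). Without tube alone replicate 3 of day 1 it called 2 genes (0.0174%), Masp1 at -1.16 (0.018) and Rasgef1c.

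Interferon-induced genes had the lowest median of the 46 lists with all arrays, though not without tube alone replicate 3, and the 3 tube alone arrays did not move as a group. Of 22 tested members 8 fell and 0 rose (Mx2, Irf7, Ifit2, Usp18, Stat2, Ifih1, Irf9 and the gene listed as Rig1, which encodes the RNA sensor RIG-I), against 7.83% of all tested genes called lower, with a median of -0.61. Mx2, a dynamin-like antiviral protein, had 7.43, 7.92 and 7.56 in NT-3 tube cord, against 9.41, 7.49 and 10.23 in tube alone cord. Irf7, the transcription factor that amplifies the type I interferon response, had 8.34, 8.66 and 8.72 in NT-3 tube cord, against 10.01, 8.63 and 10.78 in tube alone cord. Stat2, which carries the signal of the interferon receptor to the nucleus, had 8.80, 8.82 and 8.84 in NT-3 tube cord, against 9.47, 8.91 and 10.11 in tube alone cord. Tube alone replicates 1 and 3 were high and replicate 2 lay at or near the NT-3 tube level in all 3 genes. The list's centred median per array was -0.32, -0.37 and -0.27 in NT-3 tube cord, against 0.48, -0.39 and 0.95 in tube alone cord. Mx2 fell by 1.41 ± 0.35 (limma adjusted p 0.00745) and Ifit2, an inhibitor of translation of viral RNA, by 1.21 ± 0.29 (0.00589). These SEs rest on the spread shared over all groups of the fit. The SD within the tube alone group itself was 1.41 for Mx2 and 0.94 for Ifit2. Without tube alone replicate 3, Mx2 differed by -0.81 (limma adjusted p 0.262), 0 of the 22 members were called and the median was -0.36. Without tube alone replicate 2, 16 members were called and the median was -0.95, in a fit that called 3651 of all tested genes. Mx2 in lesion control cord was at 7.18, 7.64 and 7.82, like the NT-3 tube arrays. Slfn4 and Trim34, named among the largest falls, had the same order of arrays, with Trim34 at 8.47, 8.40 and 8.42 in NT-3 tube cord, against 9.64, 8.64 and 10.66 in tube alone cord.

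In rostral cord on day 1, 7 interferon-induced genes fell and 0 rose, 5 of them also called caudally, against 0.822% of all tested genes called lower rostrally. Mx2 in rostral cord had 7.44, 7.22 and 6.88 with the NT-3 tube, against 8.04, 9.11 and 8.86 with the tube alone, a difference of -1.49 (limma adjusted p 4.48e-05). Usp18, which removes the ubiquitin-like protein ISG15 from its targets, had 8.50, 8.31 and 8.36 with the NT-3 tube, against 9.49, 10.33 and 10.35 with the tube alone, a difference of -1.67 (3.67e-05). Isg15 itself had 9.10, 8.97 and 9.56 with the NT-3 tube, against 10.29, 11.15 and 11.02 with the tube alone, a difference of -1.61 (0.00776), while caudally it differed by -0.49 (0.419). In these 3 genes all rostral tube alone arrays were above all NT-3 tube arrays. Without rostral tube alone replicate 1, which held muscle transcripts, 7 members fell and the list's median was -0.53. The list's rostral median was -0.35, the difference between segments was called for 0 members, and on caudal day 3 the median was -0.13 with 0 called.

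**Figure D5:**
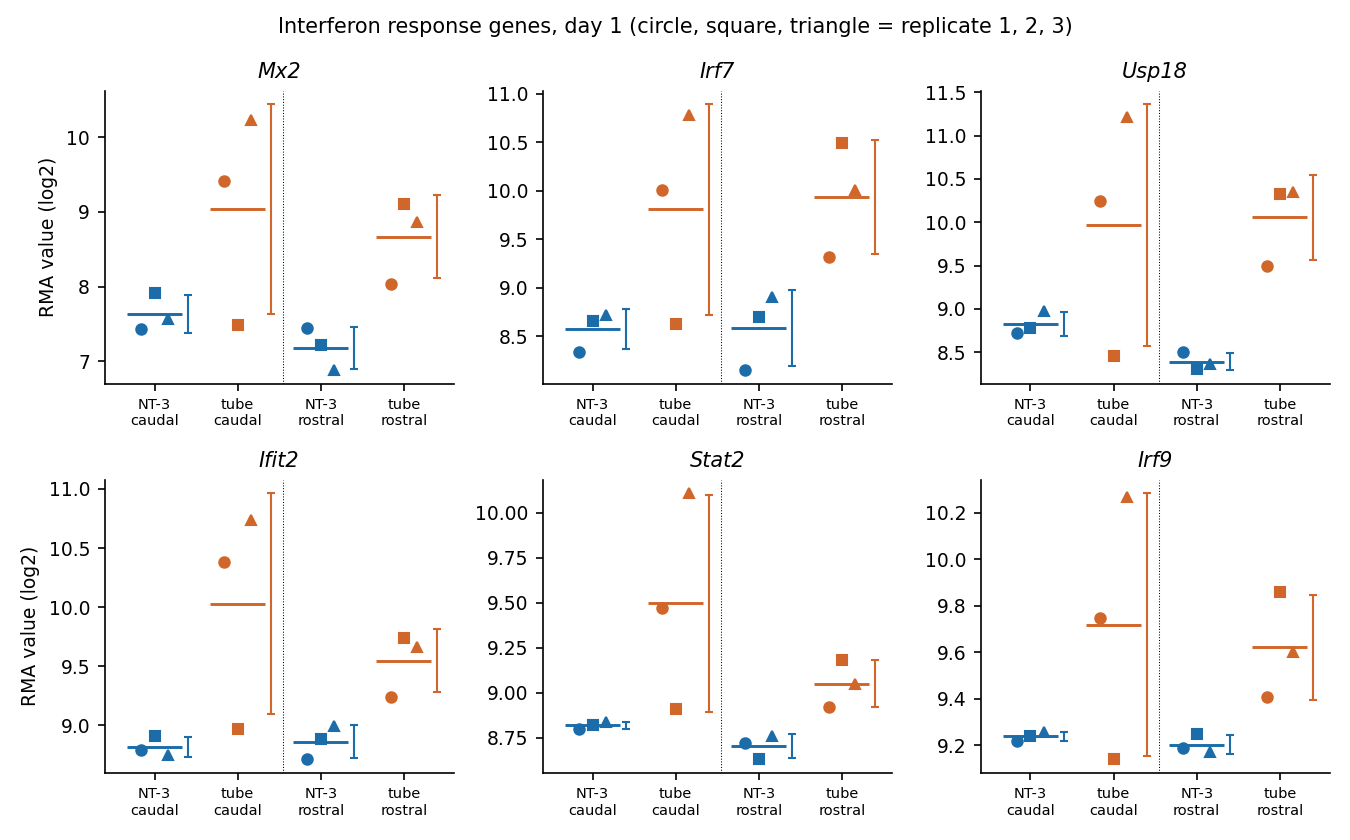
Log2 intensity (vertical axes) of the interferon-induced genes Mx2, Irf7, Usp18, Ifit2, Stat2 and Irf9 by array on day 1, in caudal and rostral cord, with NT-3 tube to the left of tube alone. Points are arrays, marked by replicate, and lines are group means. In caudal cord tube alone replicate 2 sits with the NT-3 tube arrays, while for Mx2 and Usp18 all 3 rostral tube alone arrays lie above the NT-3 tube arrays.

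Promoters are shown for the 2 interferon-induced genes that fell and hold the letters of the interferon-stimulated response element, searched as 2 copies of GAAA with any 2 bases between them on either strand, within the 250 bases before the gene start. The capitals mark the match, which in Irf7 is on the opposite strand. The sequences are from RefSeq, assembly GRCr8, and run 5′ to 3′ along the gene, for Irf7 at chr1:205800024-205800273 on the minus strand and for Ifih1 at chr3:67683969-67684218 on the minus strand.
Irf7: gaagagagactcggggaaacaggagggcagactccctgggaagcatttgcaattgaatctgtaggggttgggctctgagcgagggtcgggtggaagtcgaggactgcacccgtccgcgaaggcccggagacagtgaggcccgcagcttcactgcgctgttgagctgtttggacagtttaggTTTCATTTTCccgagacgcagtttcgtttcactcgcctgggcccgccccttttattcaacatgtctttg
Ifih1: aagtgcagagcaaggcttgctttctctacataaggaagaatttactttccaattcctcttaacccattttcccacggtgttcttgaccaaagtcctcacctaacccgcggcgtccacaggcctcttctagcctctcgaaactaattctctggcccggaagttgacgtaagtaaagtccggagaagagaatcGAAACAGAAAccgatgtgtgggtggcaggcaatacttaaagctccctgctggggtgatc
The nearest matches lie 59 bases (Irf7) and 49 bases (Ifih1) before the gene start. Among all 33469 promoters of that length, 1140 (3.41%) held the letters, among the 15 list members with an entry 8 did (53.3%), and among the 4 fallen members with an entry 2 did. The first share counts promoters. The list shares count genes, and a gene counts if any of its promoters matched, so the shares are not measured alike. Irf9 and Stat2 had no match in this window. A match is a description of letters and not of binding.

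MHC class I genes, which interferon also induces, had a median of -0.03 over 13 tested members. RT1-N3 and the peptide transporter Tap1 were called lower, by 0.53 and 0.48, with overlapping groups, and neither was called without tube alone replicate 3. RT1-CE10 had 10.47, 10.34 and 10.93 in NT-3 tube cord, against 10.87, 10.20 and 11.11 in tube alone cord, a difference of -0.15 (limma adjusted p 0.729). All 6 arrays lay far above lesion control cord at 6.83, 6.48 and 6.82 and normal cord at 6.66, 6.54 and 6.46. The cause of this step between groups was not tested, and it is not read as induction by interferon. On day 3 RT1-CE10 had 9.08, 9.73 and 7.66 in NT-3 tube cord, against 7.31, 7.30 and 7.13 in tube alone cord. The other class I members were not called, and the 8 tested genes of MHC class II presentation had a median of 0.38 with 0 called.

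Some transcripts of peripheral nerve were higher with the NT-3 tube. Of 10 tested Schwann cell genes 3 rose (Scn7a, Drp2 and Pmp2) and 0 fell, against 11.8% of all tested genes called higher, with a median of 0.44. Scn7a, a sodium channel of Schwann cells, had 10.32, 10.08 and 11.07 in NT-3 tube cord, against 9.45, 9.58 and 9.94 in tube alone cord, and was also higher rostrally by 1.20 (limma adjusted p 0.0294, and 0.102 without rostral tube alone replicate 1). The NT-3 tube array with the highest Scn7a is the one with the ganglion transcripts, and without it the list's median was 0.28 with 1 member called. Without tube alone replicate 3 the median was 0.46, and Drp2 was called. Calcb, a calcitonin gene-related peptide of sensory and motor neurons, had 8.97, 8.62 and 10.09 in NT-3 tube cord, against 7.96, 8.29 and 7.83 in tube alone cord. Its rise of 1.20 ± 0.31 (limma adjusted p 0.0079) became 0.77 (0.106) without NT-3 tube replicate 3 and 1.10 (0.128) without tube alone replicate 3. Of the 8 ganglion genes, Calcb alone was called. Their median was 0.70, and 0.18 without NT-3 tube replicate 3. Actn3, a muscle actinin, was among the largest falls with 5.75, 5.42 and 5.62 in NT-3 tube cord, against 5.84, 5.65 and 8.86 in tube alone cord, and its difference of -1.19 was -0.15 without tube alone replicate 3.

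Few genes of neurons were called, beside 11.8% of all tested genes called higher and 7.83% called lower. Of 19 pan-neuronal genes 1 rose and 0 fell (median -0.01), namely Uchl1, a neuronal ubiquitin hydrolase, with 12.14, 12.31 and 12.13 in NT-3 tube cord, against 11.66, 11.92 and 11.47 in tube alone cord. Of 21 genes of synaptic transmission 0 were called, with a median of -0.20 and of -0.08 without tube alone replicate 3. Among 15 serotonin and peptide receptor genes and peptides, Trh and Nmu rose, and among 16 voltage-gated channels Scn3a fell. Uchl1, Trh, Nmu and Scn3a were not called without tube alone replicate 3. Erythrocyte, lymphocyte, meningeal and ependymal genes had 0 called members each, with medians of -0.07, 0.04, 0.19 and 0.02. Fibroblast and fibrillar matrix genes gave 2 rises of 23, Tagln and Sparc, with a median of 0.05, and Tagln was called without tube alone replicate 3.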

How the data were processed

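RNA of the 6 arrays was measured on Affymetrix Rat Genome 230 2.0 arrays. The deposited values are log2 expression values given to 2 decimals; they were made by the authors with Affymetrix Expression Console and RMA, per the submitters' processing notes, with no software version named there. RMA quantile-normalizes arrays together, so a change shared by most genes would not be seen. Probe sets were named from GEO's platform annotation, and 20764 of the 20832 with 1 symbol had a gene ID in the rat gene table. Several symbols were listed for 436 probe sets and none for 9831, and these were not used. Where a gene had several probe sets, the one with the highest mean over cord arrays stood for it. A gene was tested if the mean of at least 1 group reached 6.55, the 40th percentile of all cord values. limma 3.58.1 (R 4.3.3) was fitted with 1 mean per group over 66 caudal and normal cord arrays (22 groups, 44 residual degrees of freedom), with Benjamini-Hochberg adjustment over all genes tested. The rostral contrast was fitted in the same way, and the difference between contrasts as an interaction. No array was imputed or dropped unless stated. Tables were handled in Python 3.11.15 with pandas 2.3.3. The scripts were tested on simulated data.

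Genes were named by a rule, and some of the genes it took are not described here. Among called genes whose groups did not overlap, it took the 15 highest and the 15 lowest differences. It also took up to 4 called members per list, and all neurotrophin and MHC class I members. The 39 genes called with and without tube alone replicate 3, and a few marker genes, were chosen after their values were seen. The comparison, the 46 gene lists (801 of 917 entries matched) and the tests were chosen with earlier results of these data known. Lists are described by counts and medians, with no test of their own. Alternatives were the filter, a second quantile normalization, the prior, array weights, a replicate block, the arrays in the fit, the choice of probe set, a minimum fold and leaving out each array. The replicate numbers did not pair the arrays: same-numbered arrays correlated at -0.33, -0.42 and -0.17 in their deviations from the group means. The number of arrays limits the precision.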

Additional observations from a re-analysis of the deposited data

Results flagged for a closer look

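The contrast of NT-3 tube and tube alone on day 1 was tested for a difference between segments, and 1313 genes differed between caudal and rostral cord by limma's interaction test with all arrays, 8 without caudal tube alone replicate 3. Differences below are caudal minus rostral, on the log2 scale. Among the named genes higher in the caudal contrast were Metrn at 1.48, Calcb at 1.35, Bdnf at 1.34, Pfdn6 at 1.05, Kcne3 at 0.96, Tagln at 0.88, Tmem176b at 0.81, Fxyd6 at 0.69, Cntf at 0.56, Dohh at 0.49, Gss at 0.31 and Sgsm3 at 0.31. Cybb, the catalytic subunit of the phagocyte oxidase, differed by -1.63, since it had 8.98, 8.75 and 8.80 in caudal NT-3 tube cord, against 9.30, 9.55 and 10.49 in caudal tube alone cord, and a rostral difference of 0.69. Igsf6, an immunoglobulin-like protein of myeloid cells, differed by -1.81 with a rostral difference of 0.87. The others lower in the caudal contrast were Trim34 at -1.02, Rfx4 at -0.84, Marchf8 at -0.76, Ccnyl1 at -0.65, Serinc5 at -0.55, Sgk2 at -0.55, Tmcc3 at -0.55, Ttyh2 at -0.49, Gab1 at -0.48, Lrrc8d at -0.43 and Fgfr2 at -0.41. Of all these, Bdnf and Tmem176b were called without caudal tube alone replicate 3.

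Between days, 29 genes differed in the caudal contrast with all arrays and 2 without tube alone replicate 3 of day 1. As day 1 minus day 3, RT1-CE10 differed by -1.72, Masp1 by -1.27, Scd by -1.05, Fgfr2 by -0.73, Ddr1 by -0.7, Rhou by -0.62 and Rasgef1c by -0.61, and Kcne3 differed by 0.94 and Tmem176b by 0.58. RT1-CE10 rose by 1.58 on day 3 (limma adjusted p 0.000331), and its difference between days was -1.53 (0.11) without that array.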

How the results depend on the processing

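The count of 2254 genes was 2273 with a trended and robust prior, 2274 with the filter at the 60th percentile, 2031 with no filter, 2373 after a second quantile normalization, 1934 with the mean of all probe sets, 2304 for every probe set by itself and 2260 with the replicate block. It was 6483 with array weights, whose estimation did not fully converge, 24 with a minimum of 2-fold, and 0 in limma with the 6 arrays alone (2528 at an unadjusted p below 0.05). Both settings added after the data were seen, the 5 arrays left without tube alone replicate 3 and the replicates numbered 3 of both groups left out, also gave 0. Leaving out 1 array gave 39 to 3651 genes here, 23 to 420 in rostral cord and 32 to 459 on day 3.

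The difference between segments (1313 genes) gave 761, 766, 2949 and 8 genes without caudal NT-3 tube replicate 1, NT-3 tube replicate 3, tube alone replicate 2 and tube alone replicate 3, and 292 and 378 without rostral NT-3 tube replicate 2 and tube alone replicate 3. The difference between days (29 genes) gave 19, 125 and 5 genes without NT-3 tube replicates 1, 2 and 3 of day 1, 255 and 2 without tube alone replicates 2 and 3 of day 1, 2 and 15 without NT-3 tube replicates 1 and 2 of day 3, and 8 and 51 without tube alone replicates 1 and 3 of day 3. The replicate block gave 255 rostral genes, 165 on day 3, 1402 between segments and 35 between days, and moved no count by over 1.5 times. Over the 150 named genes and all settings, 1644 of 2374 values kept direction and call, 706 kept direction and lost the call, 13 gained it, 11 moved and 0 reversed. The cause was not tested.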
